A study of Solanum lycopersicum with 6 samples.

Results

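Type-A response regulators are the fast-responding end of the cytokinin signalling pathway of plants, and 7 tomato (Solanum lycopersicum) genes of this class were followed here across 3 kinds of shoot apex. Cytokinin is sensed by membrane histidine kinases, which pass a phosphate through phosphotransfer proteins to response regulators in the nucleus. In Arabidopsis, type-B regulators then switch on type-A genes directly, and the type-A proteins, which lack a DNA-binding output domain, dampen the same pathway, so their transcripts serve as a readout of cytokinin signalling. Cytokinin promotes the activity of the shoot apical meristem, while auxin carried by polar transport marks the places where leaves start. The 7 genes were taken by identifier (the part before the dot), out of 34722 identifiers in the deposited table. All 7 had a row, and all 7 passed the filter on low values, as did 19807 genes in all. The files and the reference gene table pair none of the identifiers with a gene name or a description, so the class rests on the list of identifiers, single members are given no names, and the other genes of the cytokinin pathway (receptors, phosphotransfer proteins, synthesis and degradation enzymes) could not be listed.

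RNA was sequenced from 3 groups of 2 libraries each. In the wild-type (WT) group each sample was the meristem together with its 2 youngest leaf primordia. The lfs group came from the leafless mutant and the TIBA group from pin-like shoots induced in plants sprayed with TIBA at 1 mM, and for both the labels name the meristem alone. TIBA is triiodobenzoic acid, which blocks polar auxin transport. Plants were greenhouse seedlings of 14 to 18 days, and apices were dissected after acetone fixation. The sources used here give neither the lfs allele, nor the tomato cultivar, nor the genotype of the sprayed plants. The labels number the repeats without saying whether each came from its own plants. The p-values therefore rest on a spread between libraries that may in part be technical. Libraries held 17640302 to 26054787 gene-assigned reads. The typical gene differed 1.09-fold between the WT libraries, 1.17-fold between the lfs libraries and 1.25-fold between the TIBA libraries (medians over tested genes). Tissue markers could not be checked without gene names.

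In the lfs apex, 6 of the 7 type-A genes were higher than in WT, by between 2.01-fold and 34.9-fold on the fitted scale, and the seventh, Solyc03g113720.2, was lower without passing the test (limma, Benjamini-Hochberg adjusted p under 0.05). Of all tested genes, 8.9% were called higher in lfs than in WT. The median log2 difference of the members was 1.66, against -0.0010 over all tested genes. The members were chosen with earlier results of these data known, so such contrasts with all genes describe the list and do not test the class. Whether the list holds the whole class could not be checked. For the same 6 genes, both lfs libraries also lay above all other 4 libraries, an arrangement that 12.7% of tested genes showed. The count of 6 was the same with edgeR and with DESeq2 on the recovered reads. It fell when any lfs or WT library was left out (limma), and so did the number of calls among all tested genes. With a lone library in a group, the drop therefore cannot be read as particular to the members. Their median log2 difference became 1.84 when WT replicate 1 was dropped and 1.61 when WT replicate 2 was. Dropping lfs replicate 1 gave a median of 1.86, and dropping lfs replicate 2 gave 1.51. The 6 differences stayed positive in each of these fits. WT was the only group with leaf primordia, so a different level per cell and a different mix of cells cannot be told apart in the comparisons with WT.

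**Figure D1:**
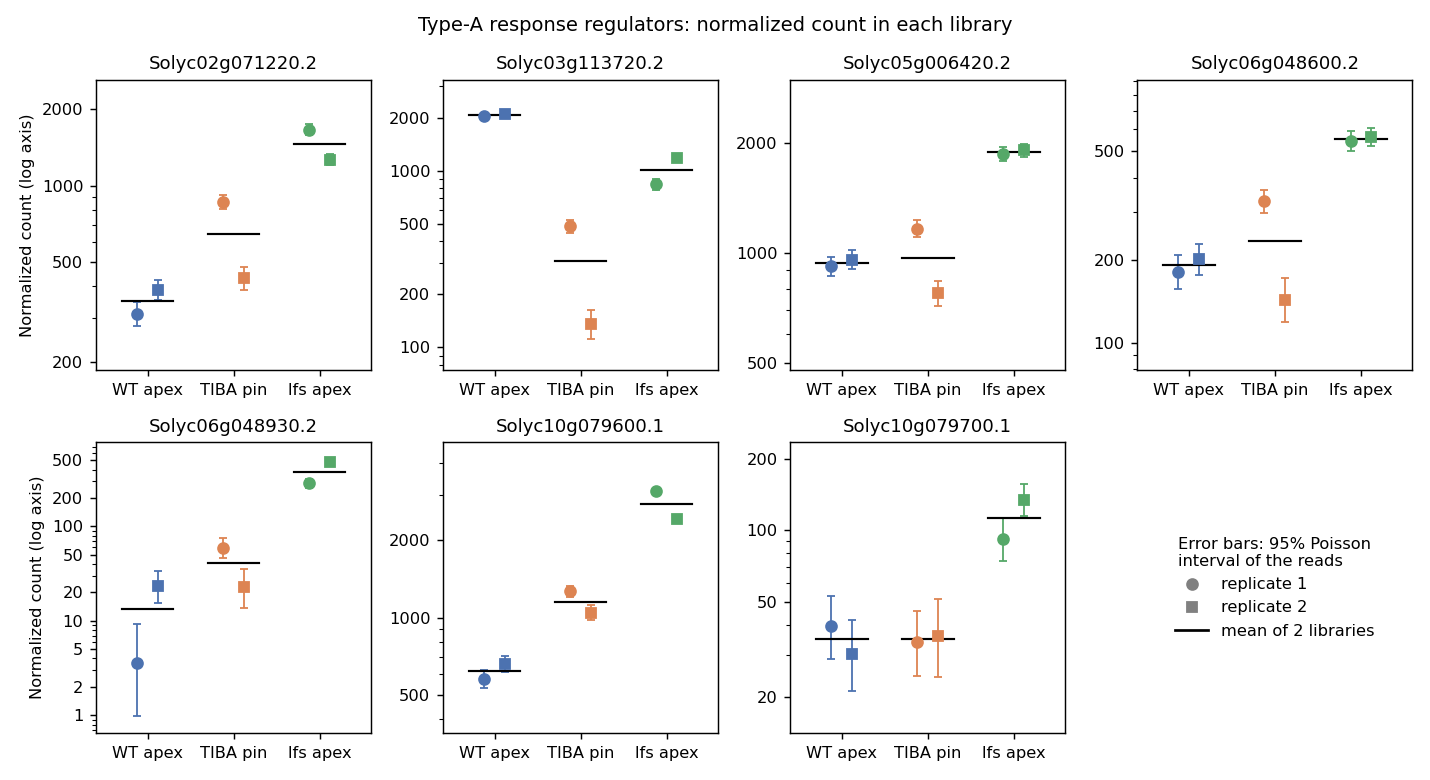
Normalized count of each of the 7 type-A genes (log axis) in the 6 libraries, with circles for replicate 1, squares for replicate 2, a line at the mean of each group and bars for the 95% Poisson interval of the reads. The lfs libraries are highest in 6 panels, and in that of Solyc03g113720.2 the WT libraries are highest, at 2041 and 2098.

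The difference with the smallest error was that of Solyc10g079600.1, on chromosome 10 by its identifier. Its normalized count, the number of reads divided by the size factor of the library, was 575 and 659 in WT, 1266 and 1044 in TIBA, and 3108 and 2425 in lfs. The 3 groups did not overlap, and their levels went up in the order WT, TIBA, lfs. The lfs apex exceeded WT 4.45-fold (log2 2.15, SE 0.18, limma adjusted p = 0.00074), and it exceeded the TIBA pin 2.39-fold (log2 1.26, SE 0.18, limma adjusted p = 0.013). Levels in the TIBA pin exceeded WT 1.86-fold (log2 0.90, SE 0.18, limma adjusted p = 0.016). The first of these calls held in all 15 alternatives. The second was lost without lfs replicate 1 (limma adjusted p = 0.061) and without lfs replicate 2 (adjusted p = 0.058), and the third without WT replicate 1 (adjusted p = 0.13) and without WT replicate 2 (adjusted p = 0.082).

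Solyc02g071220.2, on chromosome 2, showed the same order of group means. The WT libraries were at 312 and 387, the TIBA libraries at 860.4 and 429.7, and the lfs libraries at 1662 and 1267. No groups overlapped, but TIBA replicate 2 lay close to WT replicate 2, and the TIBA libraries differed 2.00-fold. The lfs apex was 4.17-fold above WT (log2 2.06, SE 0.32, limma adjusted p = 0.0077), a call lost without WT replicate 1 (adjusted p = 0.067) and without lfs replicate 1 (adjusted p = 0.075). The TIBA pin stood between the other groups without a call on either side. Its log2 distance from WT was 0.81 (95% interval 0.054 to 1.56, limma adjusted p = 0.12), and lfs differed from it by 1.25 (95% interval 0.50 to 2.01, limma adjusted p = 0.075). Without TIBA replicate 2 the pin was called above WT (log2 1.31, limma adjusted p = 0.019), and without TIBA replicate 1 the lfs apex was called above the pin (log2 1.75, limma adjusted p = 0.011). DESeq2 on the recovered reads called both with all libraries (log2 0.88, adjusted p = 0.046, and log2 1.17, adjusted p = 0.0096).

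Solyc06g048930.2, on chromosome 6, had the highest fold and the fewest reads in WT. It was at 3.59 and 23.4 in WT, which are 4 reads (exact 95% Poisson interval 1.09 to 10.2) and 27 reads (17.8 to 39.3), so the WT libraries differed from each other by more than counting error. It was at 59.6 and 22.7 in the TIBA pin and at 285 and 476 in lfs. Both lfs libraries lay far above the others, while WT and TIBA overlapped. The ratio of the lfs mean to the WT mean was 28.2, and the fitted log2 difference was 5.12 (SE 0.81, limma adjusted p = 0.0081). Only 54 of the 19807 tested genes had a higher fitted value in this comparison. That value became 3.92 when WT replicate 1 was left out and 6.33 when WT replicate 2 was, and the call was lost without lfs replicate 1 (log2 5.49, adjusted p = 0.055) and without lfs replicate 2 (log2 4.75, adjusted p = 0.063). The lfs apex also stood above the TIBA pin by a log2 value of 3.28 (95% interval 1.38 to 5.19), which did not pass in limma (adjusted p = 0.068) and passed in 6 of 15 alternatives. The alternatives that called it were DESeq2 (adjusted p = 9.6e-05), a pseudocount of 5, the fit to the 4 libraries compared, and the fits without WT replicate 1, WT replicate 2 or TIBA replicate 1. The difference between TIBA and WT was 1.84 (95% interval -0.063 to 3.75, limma adjusted p = 0.15). WT replicate 1 was the only library in which any member fell below the filter of 10.

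For the other 3 genes that rose in lfs, the TIBA mean was 1.00 to 1.23 times the WT mean. Solyc05g006420.2, on chromosome 5, was at 920.2 and 958 in WT, 1166 and 776 in TIBA, and 1869 and 1909 in lfs. The lfs libraries were nearly alike and stood 2.01-fold above WT (log2 1.01, SE 0.20, limma adjusted p = 0.017) and 1.98-fold above the pin (log2 0.99, SE 0.20, limma adjusted p = 0.038). Among other fits, the second call was lost when only the 4 libraries compared were fitted (adjusted p = 0.095) and without either WT library or either lfs library (adjusted p from 0.090 to 0.20). The TIBA libraries lay on either side of the WT libraries, with a log2 difference of 0.018 (95% interval -0.44 to 0.48, limma adjusted p = 0.96).

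Solyc10g079700.1, on chromosome 10, was a gene of few reads, at 39.5 and 30.3 in WT, 33.9 and 35.9 in TIBA, and 92.2 and 134 in lfs. WT and TIBA overlapped and lfs stood apart. The lfs apex was 3.15-fold above WT (log2 1.66, SE 0.35, limma adjusted p = 0.023) and 3.13-fold above the pin (log2 1.64, SE 0.35, limma adjusted p = 0.047). Among other fits, the latter call was lost with a filter at 50 (adjusted p = 0.059), with only the 4 libraries compared (adjusted p = 0.11), and without any single library other than TIBA replicate 1 (adjusted p from 0.073 to 0.24). Between TIBA and WT the log2 difference was 0.011 (95% interval -0.81 to 0.83, limma adjusted p = 0.99), with 71 reads over the TIBA libraries and 79 over the WT libraries.

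Solyc06g048600.2, on chromosome 6, was at 181 and 202 in WT, 328 and 144 in TIBA, and 545 and 563 in lfs. The TIBA libraries differed 2.28-fold and lay on either side of WT. The lfs apex was 2.89-fold above WT (log2 1.53, SE 0.36, limma adjusted p = 0.031), and its log2 difference from the pin was 1.35 (95% interval 0.51 to 2.18, limma adjusted p = 0.081). DESeq2 on the recovered reads called the latter (log2 1.22, adjusted p = 0.019), and so did limma without TIBA replicate 1 (log2 1.94, adjusted p = 0.0061). Against WT, the pin differed by a log2 value of 0.18 (95% interval -0.65 to 1.02, limma adjusted p = 0.75), which was 0.77 without TIBA replicate 2 (adjusted p = 0.036) and -0.41 without TIBA replicate 1 (adjusted p = 0.12). For Solyc05g006420.2, Solyc10g079700.1 and Solyc06g048600.2, the call of lfs over WT was lost without either WT library and without either lfs library (limma adjusted p between 0.062 and 0.19), while the log2 value stayed within 0.98 to 1.04, 1.39 to 1.92 and 1.45 to 1.61.

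**Figure D2:**
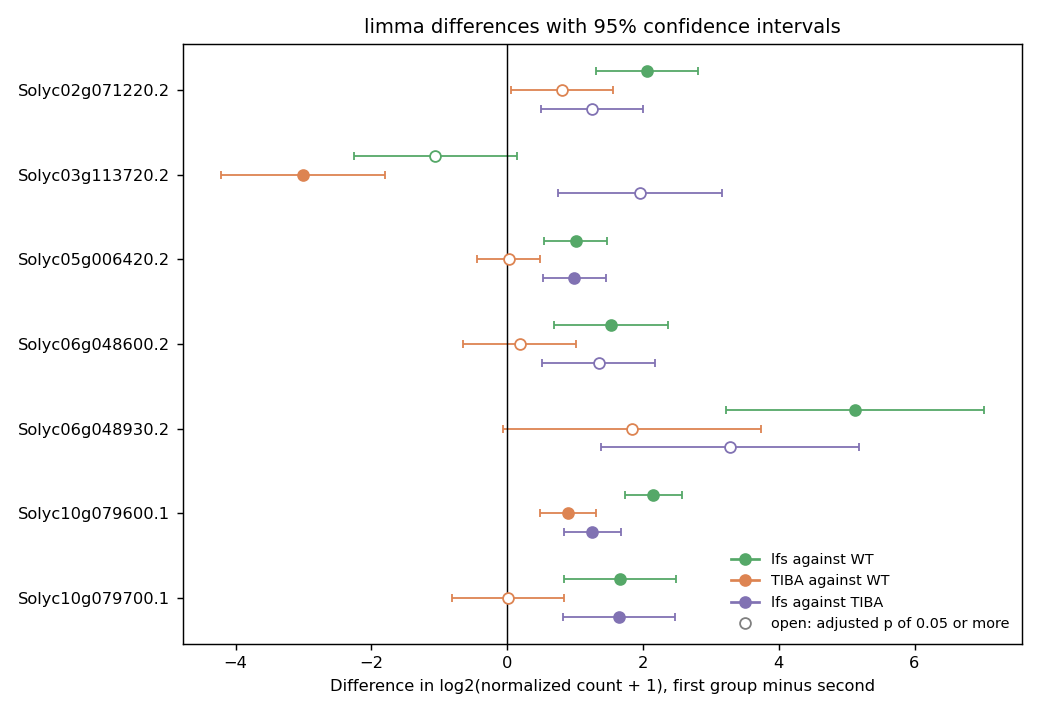
Fitted differences in log2(normalized count + 1) for each type-A gene in the 3 comparisons, with 95% confidence intervals from limma; filled points passed an adjusted p of 0.05. In lfs against WT the filled points run from 1.01 to 5.12, and Solyc03g113720.2 at -1.06 is open.

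Solyc03g113720.2, on chromosome 3, ran the other way with respect to WT. It was at 2041 and 2098 in WT, 484 and 135 in TIBA, and 837 and 1179 in lfs. The groups did not overlap, WT was highest and TIBA lowest, and the TIBA libraries differed 3.58-fold. The TIBA pin was 8.05-fold below WT (log2 -3.01, SE 0.51, limma adjusted p = 0.010). This log2 value became -3.93 when TIBA replicate 1 was left out and -2.09 when TIBA replicate 2 was, and the call was lost without WT replicate 1 (adjusted p = 0.080) and without WT replicate 2 (adjusted p = 0.088). A share of 0.732% of tested genes had a lower fitted value in this comparison.

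The lfs apex was below WT for Solyc03g113720.2 by a log2 value of -1.06 (95% interval -2.26 to 0.15, limma adjusted p = 0.22). Between TIBA libraries this gene had an SD of 1.30 on the log2 scale, against 0.35 between lfs and 0.028 between WT libraries (n = 2 each), and the 3 groups share 1 estimate of the spread. In fits that used only the 4 lfs and WT libraries (limma adjusted p = 0.0096), or that left out TIBA replicate 1 or TIBA replicate 2 (adjusted p = 0.011 in both), the same difference was called lower. Between lfs and TIBA the log2 difference was 1.95 (95% interval 0.75 to 3.16, limma adjusted p = 0.081), and 2.87 without TIBA replicate 1 (adjusted p = 0.0042).

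In the TIBA pin, 1 of the 7 genes rose (Solyc10g079600.1), 1 fell (Solyc03g113720.2) and 5 did not pass the test against WT (limma). Of all tested genes, 10.8% were called higher and 7.77% lower in this comparison, and the median log2 difference was 0.18 for the members and 0.015 for all genes. The members' count of 2 became 0 without WT replicate 1 or WT replicate 2 (2 and 3 had an unadjusted p under 0.05, and edgeR with all libraries called 2) and 4 without TIBA replicate 2. In 6 of 7 members TIBA replicate 1 stood above TIBA replicate 2, as in 47.7% of tested genes. Solyc10g079700.1 was the exception. The larger TIBA value exceeded the smaller by between 1.06-fold and 3.58-fold over the members, against the 1.25-fold median of all genes. TIBA replicate 2 was the library with the fewest reads, and the part of depth or dissection in this gap was not tested.

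The direct comparison of the leafless apices placed the lfs libraries above the TIBA libraries for all 7 type-A genes, including Solyc03g113720.2. Both lfs libraries lay above both TIBA libraries in 25.3% of tested genes. The fitted log2 differences lay between 0.99 and 3.28, and their median was 1.35, against 0.018 over all genes. The test called 3 of the 7 (Solyc05g006420.2, Solyc10g079600.1 and Solyc10g079700.1; limma adjusted p between 0.013 and 0.047), against 1.97% of all tested genes called higher in lfs than in TIBA, while all 7 had an unadjusted p under 0.05. The share of all tested genes with an unadjusted p under 0.05 is not given here. DESeq2 on the recovered reads called 10.1% of all tested genes in either direction, and 6 of the members, all but Solyc03g113720.2. The authors' deposited table called 1460 of 25845 genes with an adjusted p in either direction, and the same number of members as DESeq2. The count was 0 without lfs replicate 1 or lfs replicate 2 (7 and 6 had an unadjusted p under 0.05, and edgeR with all libraries called 3), 2 without either WT library or without TIBA replicate 2, and 7 without TIBA replicate 1. By the labels neither group held leaf primordia, but the cell makeup of the apices was not measured. The lfs group carried the mutation and the TIBA group was sprayed, so mutation and treatment cannot be told apart here. This comparison shares the lfs and TIBA libraries with the comparisons against WT, so the 3 sets of values are not independent.

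**Figure D3:**
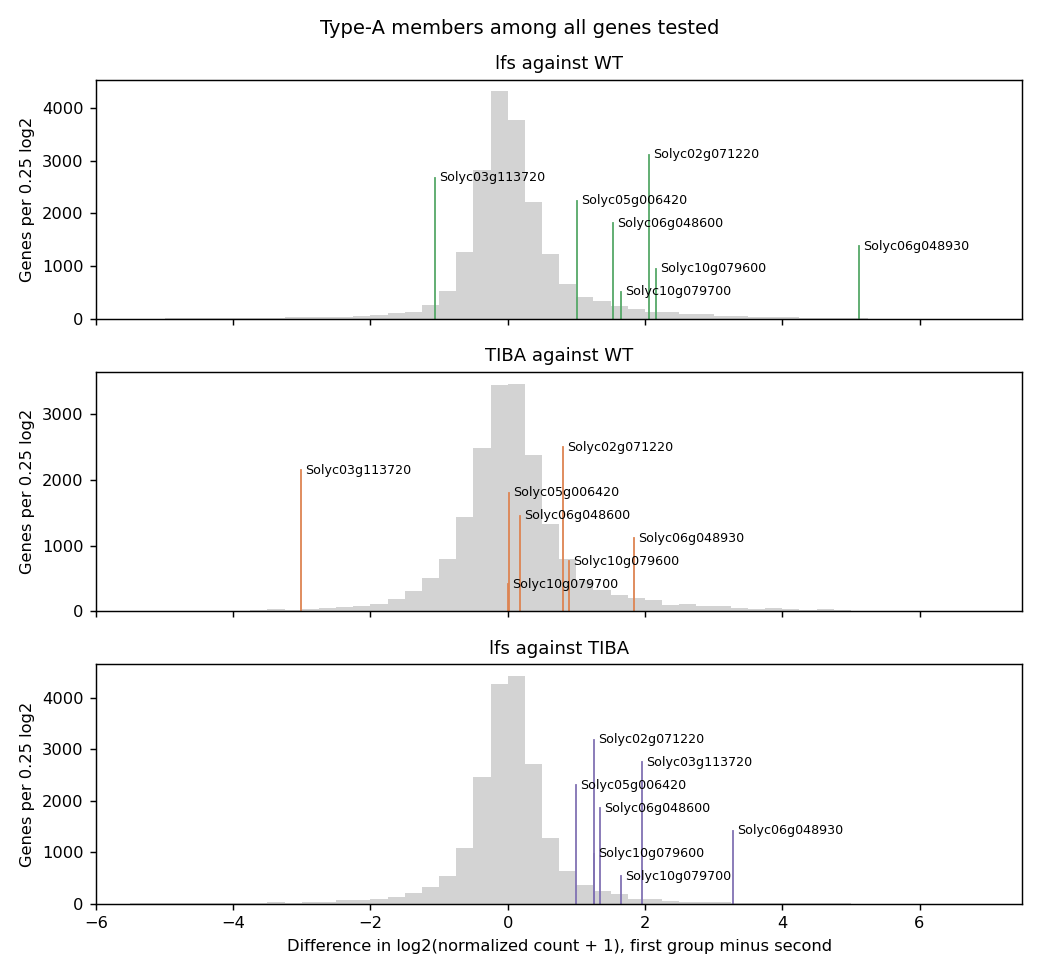
Number of tested genes (grey bars) by their difference in log2(normalized count + 1) in each comparison, with a vertical line at the value of each type-A gene; the heights of the lines carry no meaning. In lfs against TIBA all 7 lines lie to the right of 0, between 0.99 and 3.28.

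The authors' deposited table called the same 6 members higher in lfs than in WT, with log2 values from 1.01 to 4.81, and gave Solyc03g113720.2 an adjusted p of 0.54. In this comparison it called 2997 of 25845 genes with an adjusted p, in either direction. In the TIBA pin against WT, the authors' deposited table called Solyc10g079600.1 and Solyc02g071220.2 higher (log2 0.90 and 0.89) and Solyc03g113720.2 lower (log2 -2.74), which is 1 gene more than limma, Solyc02g071220.2. There it called 3686 of 25845 genes with an adjusted p, in either direction. The authors' values rest on the same libraries and do not replicate the limma values.

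Summed over the 7 genes, normalized counts stood at 4072 and 4359 in WT, 4198 and 2587 in TIBA, and 8397 and 7953 in lfs. The lfs sums stood apart from the rest, and those of TIBA replicate 1 and WT were close. The makeup of the sum differed between groups. Solyc03g113720.2 supplied 49.1% ± 1.40 of it in WT (SD, n = 2), 12.4% ± 3.44 in lfs (SD, n = 2) and 8.38% ± 4.45 in TIBA (SD, n = 2). Solyc10g079600.1 supplied 14.6% ± 0.706 in WT (SD, n = 2), 33.7% ± 4.61 in lfs (SD, n = 2) and 35.3% ± 7.21 in TIBA (SD, n = 2). Without Solyc03g113720.2, a gene set aside after its values were seen, the sums were 2032 and 2261 in WT, 3714 and 2451 in TIBA, and 7560 and 6774 in lfs. Gene lengths were not used here, and counts grow with transcript length, so these shares compare 1 gene between groups and do not rank the genes.

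**Figure D4:**
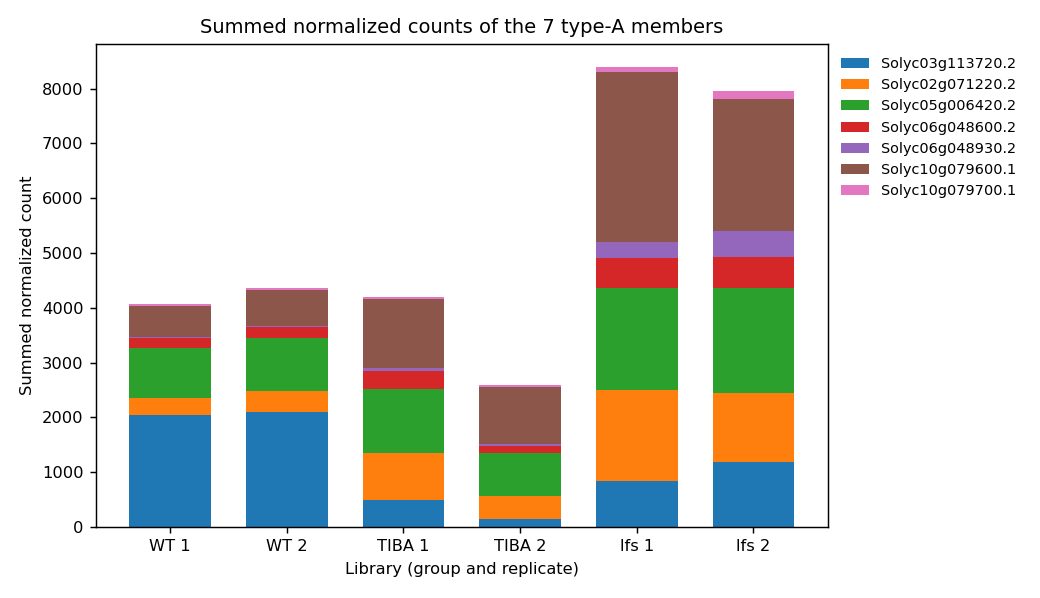
Summed normalized count of the 7 type-A genes in each library, stacked by gene. The lfs bars reach 8397 and 7953, and the lowest segment, Solyc03g113720.2, takes 49.1% of the WT bars on average against 12.4% in lfs and 8.38% in TIBA.

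Among the 7 genes, 6 varied together over the libraries and 1 did not. Pearson correlations of log2(normalized count + 1) over the 6 libraries lay between 0.79 and 0.99 (median 0.90) for the 15 pairs that leave out Solyc03g113720.2, and between -0.21 and 0.27 for the 6 pairs that include it. The points share libraries and fall into 3 groups, so these values describe the group pattern. Solyc03g113720.2 was set apart after its values were seen, so high values among the other pairs are partly built in.

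For each member, the tested gene outside the list with the most similar pattern over the 6 libraries was also found. For Solyc06g048930.2 it was Solyc12g008900.1 (Pearson r = 0.9987), at 0.898 and 14.7 in WT, 52.9 and 15.6 in TIBA, and 643 and 1088 in lfs. This gene shared with Solyc06g048930.2 both the high lfs level and the low value of WT replicate 1. For Solyc03g113720.2 it was Solyc08g068110.1 (r = 0.9995), at 151 and 147 in WT, 33.1 and 7.18 in TIBA, and 57.7 and 86.2 in lfs. For the other members it was Solyc04g077100.2 (with Solyc02g071220.2), Solyc11g071470.1 (with Solyc05g006420.2), Solyc12g007310.1 (with Solyc06g048600.2), Solyc11g071710.1 (with Solyc10g079600.1) and Solyc01g095610.2 (with Solyc10g079700.1), with r from 0.9924 to 0.9992. Each is the highest of all tested genes over 6 points, and between 95 and 607 genes per member had r above 0.95, so a close match is common.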

How the data were processed

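Libraries were made with the TruSeq RNA preparation of Illumina, per the labels' protocols. The submitters' processing notes name TopHat2 (2.0.10), HTSeq (0.6.1p1) and DESeq2 (1.6.3). The sources used here do not give the genome build, annotation, strand setting or handling of reads shared by similar genes. The deposited values are DESeq2-normalized counts, a signal equal to reads divided by 1 size factor per library, per the file headers. The table also holds the authors' log2 fold changes and p-values, per the file headers. All 208332 values (100%) were whole multiples, within 0.001 reads, of 1 read's worth, so reads were recovered.

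The 3 groups were fitted together (3 residual degrees of freedom) with limma (3.58.1, R 4.3.3; trend, robust) on log2(normalized count + 1), for genes reaching 10 in at least 2 libraries, with Benjamini-Hochberg adjustment over all of them and calls at 0.05. The pseudocount shrinks the changes of genes with few reads. Alternatives were edgeR (4.0.16) and DESeq2 (1.42.0) on recovered reads, other filters, pseudocounts and scalings, a replicate block, and fits without single libraries. The pipeline was tested on simulated data. Every member is named, with the gene most correlated to each over the 6 libraries. The members were chosen with earlier results of these data known. Poisson intervals cover counting error only. None of the identifiers matched the reference gene table (RefSeq SLM_r2.1), and no sequences of these genes were used here.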

Additional observations from a re-analysis of the deposited data

How the results depend on the processing

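Of 315 recomputed differences of single members, 255 kept direction and side of the threshold, 36 lost the call, 17 gained it and 7 changed sign. The sign changes were all in TIBA against WT, in differences that were not called: Solyc10g079700.1 in edgeR (-0.0076), DESeq2 (-0.010), without WT replicate 2 (-0.17) and without TIBA replicate 2 (-0.029; highest 0.20 without WT replicate 1), Solyc05g006420.2 without WT replicate 1 (-0.011) and without TIBA replicate 1 (-0.28; highest 0.31 without TIBA replicate 2), and Solyc06g048600.2 without TIBA replicate 1 (-0.41; highest 0.77 without TIBA replicate 2). With single libraries left out, members called ranged from 1 to 7 (lfs against WT), 0 to 4 (TIBA against WT; 2 and 3 had an unadjusted p under 0.05 where limma called 0, and edgeR with all libraries called 2) and 0 to 7 (lfs against TIBA; 7 and 6 with an unadjusted p under 0.05 where limma called 0, and edgeR with all libraries called 3). All genes called ranged from 536 to 4451, 654 to 6502 and 103 to 2734. A group's lone library is then assumed to vary like the other groups. With only the 4 libraries compared, 4566 genes were called in lfs against WT and 356 in lfs against TIBA. DESeq2 called 2008 genes and 6 members in lfs against TIBA. The replicate block left 474 genes and 1 member called in lfs against TIBA, where Solyc05g006420.2 (adjusted p = 0.068) and Solyc10g079700.1 (adjusted p = 0.094) lost their calls, and it changed no member's call in the other comparisons. Same-numbered libraries of different groups did not deviate together (r = 0.015, -0.051 and -0.14 across genes), and the labels tie them by number only. TMM scaling, the filters and the pseudocounts changed the call of Solyc10g079700.1 (stricter filter at 50, adjusted p = 0.059) and Solyc06g048930.2 (pseudocount 5, adjusted p = 0.040) in lfs against TIBA, and no other call of a member. Depth limits Solyc06g048930.2 and Solyc10g079700.1 most, with 31 and 79 reads over the WT libraries.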

Other observations

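The members on chromosome 10 lie close together by identifier, and the genes between them also differed between the groups. Between Solyc10g079600.1 and Solyc10g079700.1 the table lists 9 identifiers, of which 5 were tested and 4 were called higher than WT in the lfs apex, against 8.9% of all tested genes (limma, adjusted p under 0.05). The comparison of the TIBA pin with WT shares the WT libraries, so its count is not independent of this one. In it, the same 4 genes were called higher than WT, against 10.8% of all tested genes. One of them, Solyc10g079630.1, was at 5.39 and 3.47 in WT, 93.5 and 43.1 in TIBA, and 62.8 and 49.6 in lfs. Another, Solyc10g079640.1, was at 69.1 and 79.7 in WT, 465 and 243 in TIBA, and 206 and 274 in lfs. In both genes the WT libraries were lowest and the lfs and TIBA libraries overlapped, as they did in Solyc10g079620.1. The lfs and TIBA libraries of Solyc10g079600.1 and Solyc10g079700.1 did not overlap. Like Solyc10g079700.1, Solyc10g079670.1 had lfs apart, at 8.98 and 12.1 in WT, 10.8 and 3.59 in TIBA, and 44.6 and 39.8 in lfs. Solyc10g079610.1 had the order of Solyc10g079600.1 without overlap, at 712 and 626 in WT, 1195 and 971 in TIBA, and 1288 and 1244 in lfs. None of the 5 was called between lfs and TIBA (limma; 1 had an unadjusted p under 0.05). Between the members on chromosome 6, Solyc06g048600.2 and Solyc06g048930.2, 31 identifiers are listed and 11 were tested, of which 1 was called higher and 1 lower in lfs than in WT. This stretch was looked at after the members' values were seen.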
